A study of Mus musculus with 4 samples.

Results

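The window of chromosome 1 from 75.5 to 78.7 Mb (mm10) holds Epha4 and Pax3, the gene desert beside Epha4 and their neighbours. Every peak of the 4 deposited CTCF peak lists that overlaps this window was taken, whatever its strength. Posterior trunk had 131 such peaks, brain 82, distal forelimb 65 and proximal forelimb 66. Peaks sharing at least 1 base were joined into 154 regions, of 121759 in the whole genome. CTCF was profiled by chromatin immunoprecipitation and sequencing in wild-type embryos of the strain B6CBAF1, with 1 library per tissue. The posterior trunk, at about embryonic day (E) 10, was pooled from some 30 embryos, and hindlimb buds were left out as far as the dissection allowed. Brain was telencephalon pooled from 6 embryos at E12.5, and both forelimb parts were from E12.5 and were taken over from an earlier study. The tissues are mixtures of cells, and peak lists hold no expression, so the labelled tissues were not checked by markers. Tissue goes together with library, with study for the forelimb parts, and with age for the trunk, so these cannot be told apart. With a single library each, tissue differences are described without tests. Besides Epha4 and Pax3, the coding genes of the window are Obsl1, Inha, Stk11ip and Slc4a3 at its start and Gm2102, Sgpp2, Farsb, Mogat1, Acsl3 and Utp14b past Pax3. By the lowest local background in each list, trunk and brain were 2.21 and 2.02 times as deep as distal forelimb, and proximal forelimb 1.08 times.

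Epha4 encodes a receptor tyrosine kinase that binds ephrins on neighbouring cells and guides axons and cell sorting. Pax3 encodes a paired-box transcription factor of the dorsal neural tube, the neural crest and the muscle precursors that enter the limb. In the limb, enhancers in the desert beside Epha4 act on Epha4, and a border between the domains keeps them from Pax3. Deletions that remove this border bring Pax3 under those enhancers and shorten the digits. CTCF stops cohesin as it extrudes chromatin loops, and strong CTCF sites are therefore often found at such borders. The peak lists hold no contacts and no enhancers, so "border site" below means only a strong region called in every tissue.

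Of the 23 promoter sequences that the RefSeq table holds for this window, 3 overlapped a CTCF region, against 18.6% of all 32851 promoters. All 3 were of non-coding genes. A region called in all 4 tissues was overlapped by 1 of the 23, against 10.5% of all promoters. A promoter here is the stretch from 250 bases before to 50 bases after a gene start. The table had no entry for Pax3, and the Epha4 promoter overlapped no region. Gm33083, a long non-coding gene between Epha4 and Pax3, had its whole promoter inside a region called in all 4 tissues, chr1:77896215-77896800. Gm17751, a non-coding gene in the desert, had part of its promoter in a region called in brain only, chr1:76489035-76489239. Both promoters are shown because a peak summit falls inside them (RefSeq, GRCm38.p6, 5′ to 3′ on the strand of the gene). Capitals mark matches to CNAGNNGGC, a short form of the CTCF core, on either strand.

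Gm33083 promoter, chr1:77896249-77896548, minus strand: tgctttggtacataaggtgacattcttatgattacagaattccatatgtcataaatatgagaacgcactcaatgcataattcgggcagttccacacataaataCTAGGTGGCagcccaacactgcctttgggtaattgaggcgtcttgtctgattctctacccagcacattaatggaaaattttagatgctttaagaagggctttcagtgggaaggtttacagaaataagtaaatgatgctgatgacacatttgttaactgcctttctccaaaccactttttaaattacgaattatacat
Gm17751 promoter, chr1:76488883-76489182, plus strand: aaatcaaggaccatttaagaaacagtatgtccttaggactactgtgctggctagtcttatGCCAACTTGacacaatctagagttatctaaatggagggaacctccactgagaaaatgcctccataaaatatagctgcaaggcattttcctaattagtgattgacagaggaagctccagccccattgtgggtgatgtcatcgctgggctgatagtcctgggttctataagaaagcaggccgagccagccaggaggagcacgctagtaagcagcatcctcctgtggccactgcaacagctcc

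In the Gm33083 promoter the match covered bases 104 to 112, counted from the 5′ end, as printed, and the summit of the proximal forelimb peak lay at base 117. The 4 summits of this region lay within 3 bases of each other. In the Gm17751 promoter the match was on the reverse strand at bases 61 to 69, while the brain summit lay at base 273, 208 bases from the middle of the match. This short form occurred in 20.8% of all 32851 promoters, in 36.8% of those overlapping a region called in all 4 tissues and in 17.9% of those overlapping no region. A longer form, CCNNNAGNNGGC, occurred in 8.61% of all promoters and in neither of these. The longer form matched 1 promoter of the window, that of Gm33152. The short form was chosen after the longer one had given no match in the promoters shown, and it matched 5 of the 23. Of these, the promoters of Gm2102, Gm29611 and Sgpp2 overlapped no region. A match is a run of letters and not a shown binding site.

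Of the 154 regions, 47 (30.5%) were called in all 4 tissues, against 42.4% of regions in the genome. Regions called in 1 tissue only numbered 72 (46.8%), against 39.6%. Of these, 52 (33.8% of the regions) were called in posterior trunk only, against 28.4%, and 14 (9.09%) in brain only, against 5.92%. The forelimb parts had 3 each (1.95%), against 3.11% for distal and 2.23% for proximal forelimb. Shared regions were spread unevenly over the window, with 1.05 per 100 kb in the desert from Slc4a3 to Epha4, 2.05 between Epha4 and Pax3, and 2.59 from Pax3 to the end of the window, against 1.78 over chromosome 1. At equal list length 44.8% of the window's regions were shared, against 58.0% of the genome's, so the window stood below the genome there too.

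**Figure D1:**
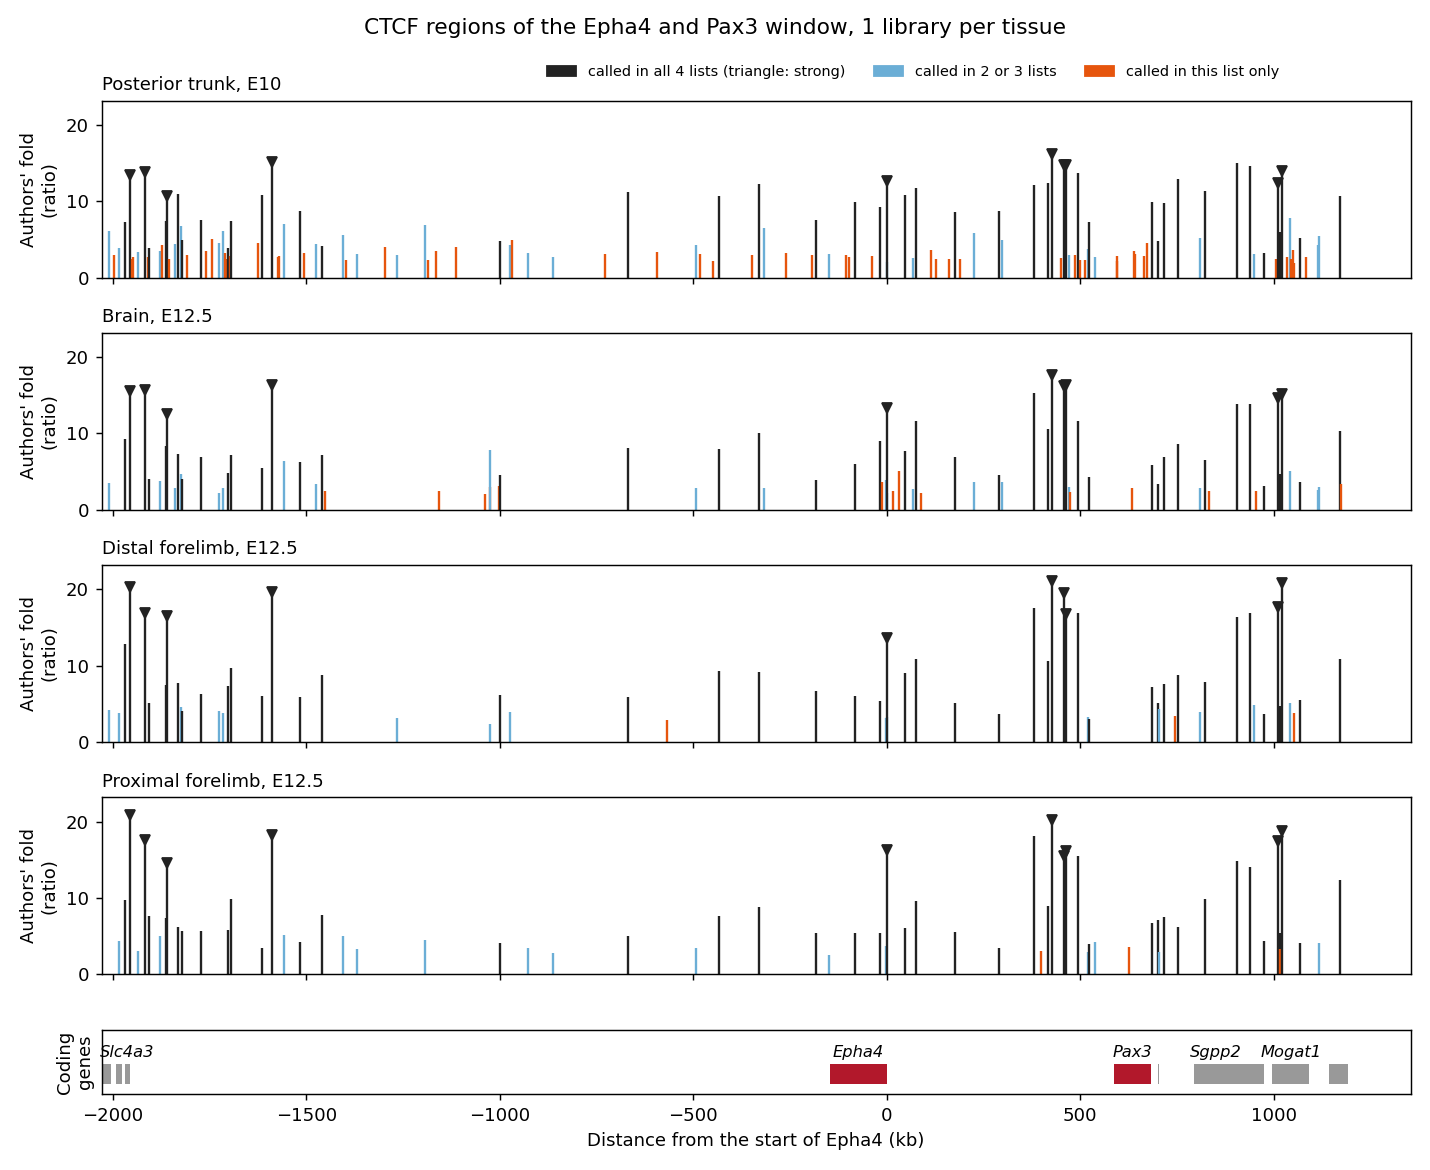
CTCF regions along the window, as distance from the start of Epha4 (kb, horizontal) against the authors' fold in each of the 4 libraries (ratio, vertical), 1 line per region. Black lines are the 47 regions called in all 4 lists, blue lines those in 2 or 3, orange lines those in 1, and triangles mark the 10 strong shared sites. Pax3 has no black line over its span.

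Strength was compared within a common set, the 51657 regions of the genome called in all 4 tissues. In each list these were ranked by the authors' p, with percentile 100 as the strongest, so that the 4 rankings have the same length. A strong shared site is one whose lowest percentile over the 4 tissues was at least 80. The window had 10 of them among its 47 shared regions, against 13.7% in the genome. The weakest site inside this limit had a lowest percentile of 80.8. Just outside were 2 regions of the Farsb gene, chr1:78454403-78455164 at 79.8 and chr1:78419395-78420124, which also touches Sgpp2, at 79.7. Of the 10 strong sites, 4 lay at the Slc4a3 end of the desert, 1 beside the Epha4 start, 3 between Epha4 and Pax3, and 2 in Mogat1.

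The site with the highest lowest percentile lay at the last bases of Slc4a3, an anion exchanger gene, at chr1:75559218-75560128. The authors' fold, used here only within each list, was 13.4 for trunk, 15.6 for brain, 20.3 for distal and 20.8 for proximal forelimb. Its percentiles were 98.6, 99.8, 99.96 and 99.97, and its 4 summits lay within 7 bases. In the trunk order chr1:77972111-77972902 stood higher, at 99.4. By fold other sites were higher in trunk, brain and distal forelimb but not in proximal forelimb. Ranked by fold, the lowest percentile of the Slc4a3 site was 80.7. Within Slc4a3 a further shared region, chr1:75546575-75546985, was far lower in the trunk order, at percentile 23.6, against 51.3 in brain, 64.8 in distal and 53.2 in proximal forelimb.

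The desert began with 3 more strong sites. The region chr1:75597440-75598154 stood at percentile 95.3 in trunk, 96.4 in brain, 89.0 in distal and 92.0 in proximal forelimb. The region chr1:75653424-75654105 lay beside a shared region of middle strength, chr1:75652499-75652999, and stood at 85.5, 91.8, 97.2 and 93.6. The region chr1:75925618-75926230, 10.5 kb from the non-coding gene Gm32622, stood at 94.9, 93.0, 95.6 and 91.7, with folds of 15.2, 16.4, 19.7 and 18.3. These sites were thus near the top of every list, and the farthest lay 366 kb from Slc4a3 in a desert of 1808 kb. Ranked by the authors' fold instead of p, a choice added after seeing the data, the lowest percentile of chr1:75653424-75654105 was 58.5.

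In the whole desert 19 of 72 regions (26.4%) were called in all 4 tissues. Called in 1 tissue only were 34 (47.2%), and in posterior trunk only 28 (38.9%). Past the last of these strong sites, on the way to Epha4, 7 of 42 (16.7%) were shared. There 22 (52.4%) were called in 1 tissue only and 16 (38.1%) in trunk only. Over the genome 42.4% of regions were shared, 39.6% were called in 1 tissue only and 28.4% in trunk only. The 3 longest stretches without a shared region followed one another, from chr1:76054193 to 76515020 (461 kb), from 76515432 to 76845342 (330 kb) and from 76845989 to 77081597 (236 kb). Gaps of at least 200 kb made up 3 of the 46 between shared regions here, against 4.14% in the genome, and the median gap was 36.8 kb, against 19.8 kb. The first of these stretches was not empty, with 9 regions called in trunk, 6 in brain, 2 in distal and 3 in proximal forelimb. The second held 5 regions in trunk, 0 in brain, 1 in distal and 2 in proximal forelimb.

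Shared regions in the part of the desert next to Epha4 were of middle or low strength. The region chr1:77183893-77184557 was the highest, at percentiles 66.0 in trunk, 56.7 in brain, 49.7 in distal and 50.4 in proximal forelimb. The region chr1:77081597-77082192 stood at 47.3, 42.1, 46.2 and 40.8. The last one before the gene, chr1:77331662-77332168, 35.0 kb from Epha4, stood at 26.7, 10.8, 33.6 and 23.2.

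Epha4 spans chr1:77367182-77515107, and its promoter entry is on the minus strand, so it starts at its Pax3 end. Within the gene, 2 of 8 regions (25%) were shared, against 42.4% in the genome. The region chr1:77433011-77433574 had folds of 9.90 in trunk, 5.95 in brain, 5.97 in distal and 5.32 in proximal forelimb, and percentiles of 44.6, 28.6, 26.5 and 24.7. The region chr1:77496562-77497041, which contains the microRNA gene Mir6352, stood at 43.9 and 49.0 in trunk and brain and at 23.8 and 27.9 in distal and proximal forelimb. At neither region were trunk and a forelimb part 25 points apart, and the exact 95% Poisson intervals of their pileups, carried over to percentiles, overlapped. Brain and distal forelimb were 25.1 points apart at the second. Exon and intron positions were not used here.

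The start of Epha4 had 3 regions within 2 kb, of which the one outside the gene was strong in every tissue. It lay at chr1:77516102-77516925, 1.01 kb upstream, with folds of 12.6 in trunk, 13.4 in brain, 13.6 in distal and 16.2 in proximal forelimb. Its percentiles were 86.9, 86.1, 83.3 and 90.9, and ranked by fold its lowest was 73.8. Just inside the gene, chr1:77514270-77514532 was called in trunk, brain and distal forelimb with folds of 2.00, 2.23 and 3.20. Beside it, chr1:77513512-77513771 was called in brain and both forelimb parts with folds of 3.83, 3.17 and 3.59, and was the only region of the window missing from posterior trunk alone. Scaling its pileup and background from each of these lists to the trunk depth gave a chance of a call in trunk of 1.0 at equal occupancy. That chance is scaled by depth alone and leans high, since the region was picked for passing in the other lists.

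Between Epha4 and Pax3, 12 of 31 regions (38.7%) were shared, against 42.4% in the genome. Next to the strong site at Epha4, chr1:77561795-77562414 in the non-coding gene Gm32793 was of middle strength, at 49.4 in trunk, 41.9 in brain, 47.0 in distal and 31.0 in proximal forelimb. The other 3 strong sites of this interval stood together in the part nearer to Pax3. The region chr1:77942944-77943743 had the highest fold of the window in trunk, brain and distal forelimb, with 16.2, 17.7 and 21.1, and 20.2 in proximal forelimb. Its percentiles were 93.9, 95.6, 92.3 and 92.3, and its summits lay within 3 bases. Next came chr1:77972111-77972902, at 99.4 in trunk, 95.6 in brain, 92.9 in distal and 87.2 in proximal forelimb. The last of them, chr1:77978557-77979219, stood at 91.5, 89.8, 80.8 and 84.4. This site kept its place above 80 in 3 of 6 other settings, with a lowest value of 79.2.

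On each side of these lay a shared region that was high in 3 tissues and lower in the other, though on the Epha4 side it was not the nearest. The nearest there, chr1:77930576-77931115, was of middle strength, at 61.7 in trunk, 57.8 in brain, 53.3 in distal and 50.9 in proximal forelimb. Beyond it, the region at the Gm33083 promoter stood at percentile 56.6 in trunk, 84.6 in brain, 85.4 in distal and 85.9 in proximal forelimb. Its authors' folds were 12.1, 15.3, 17.6 and 18.1, and it was the only one of the 12 that was at least 25 points lower in trunk than in every other tissue. On the Pax3 side chr1:78008645-78009332 stood at 88.0 in trunk, 63.5 in brain, 85.9 in distal and 81.1 in proximal forelimb. The last shared region before Pax3, chr1:78036708-78037112, stood low in the common order, at 29.0 in trunk, 14.1 in brain, 1.45 in distal and 9.17 in proximal forelimb. Trunk and distal forelimb were 27.6 points apart there.

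Pax3 itself, chr1:78101267-78197136, was the only segment of the window with no shared region. It held 8 regions. Of these, 6 were called in posterior trunk only, against 28.4% in the genome. The others were 1 in brain only, against 5.92%, and 1 in proximal forelimb only, against 2.23%. The strongest of the 8 was chr1:78187317-78187777 in trunk, with a fold of 4.55 at percentile 47.7 of its own list. Scaled to the other depths, its chance of a call at equal occupancy was 0.999 in each forelimb part and 1.0 in brain. These chances lean high, since the region was picked for passing in trunk. The proximal forelimb region chr1:78140876-78141093 had a fold of 3.54 and the brain region chr1:78149912-78150124 one of 2.80. Between shared regions the gap over Pax3 ran for 163 kb, and 5.65% of the gaps in the genome were as long. The count of 8 became 6 at a −log10 q of at least 5, 5 with pileups thinned to equal depth and a −log10 p of at least 5 together, 2 at equal list length and 2 without the trunk library. No region was shared in any of these settings.

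Just past Pax3, CTCF occupancy was shared again but of middle or low strength. The region chr1:78200167-78200617, 3.03 kb from Pax3, stood at percentile 46.3 in trunk, 24.6 in brain, 35.6 in distal and 32.6 in proximal forelimb. Together with chr1:78215623-78216144 in the predicted gene Gm2102 and chr1:78230699-78231199 it formed a run of 3 shared regions over 31.0 kb. The middle one went from 5.60 in brain and 11.4 in trunk to 24.7 in distal and 41.0 in proximal forelimb. The outer one lay within 36.7 to 44.0 in all tissues.

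The far end of the window held a second run of 3 over 12.2 kb in Mogat1, which encodes an enzyme of triglyceride synthesis. Its outer members were strong sites. The region chr1:78525138-78525817 stood at 91.7 in trunk, 92.3 in brain, 94.3 in distal and 94.6 in proximal forelimb, with a lowest value of 71.6 when ranked by fold. The region chr1:78536805-78537368 stood at 88.0, 87.0, 93.9 and 94.1. Between them chr1:78530482-78531020 reached only 18.4 to 30.1. The last shared region of the window, chr1:78686826-78687460 in Acsl3, an acyl-CoA synthetase gene, stood at 52.6, 61.1, 59.4 and 69.4. In all, 13 of the 31 regions past Pax3 (41.9%) were shared, against 42.4% in the genome.

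**Figure D2:**
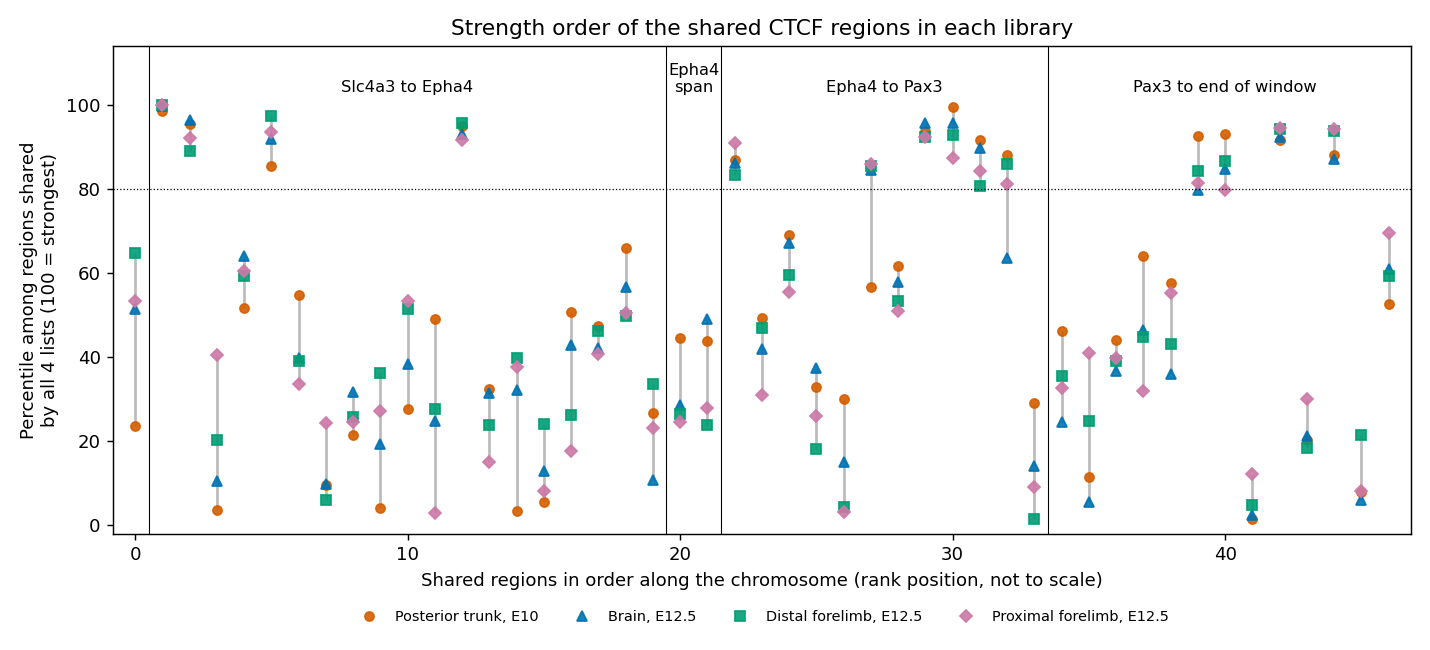
Percentile of each of the 47 shared regions among all regions shared by the 4 lists (vertical, 100 is the strongest), in order along the chromosome (horizontal), 1 marker per library. Grey lines join the lowest and highest library and the dotted line marks percentile 80. Sites above the line lie within 20 points by their definition, and below it the range reaches 46.1 points.

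The place of a shared region in the strength order differed most between trunk and the forelimb parts. Of the 47, 13 differed by at least 25 percentile points between some pair of tissues, against 15.1% in the genome. A strong site cannot be among these, since its percentiles are all at least 80. Trunk and proximal forelimb differed by that much at 10 regions, against 8.3% in the genome, and trunk and distal forelimb at 6, against 6.49%. Trunk and brain differed at 3, against 4.3%, brain and proximal forelimb at 3, against 3.05%, and brain and distal forelimb at 1, against 2.67%. The forelimb parts differed so at 0 regions, against 1.08%. The median distance between the forelimb parts was 5.37 points, against 4.44 in the genome, and that between trunk and proximal forelimb 12.1, against 8.90. Without the trunk library 5 regions of the window differed, against 5.26% of the genome's, so most of the 13 rested on that library, which is also the deepest and from another age.

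**Figure D3:**
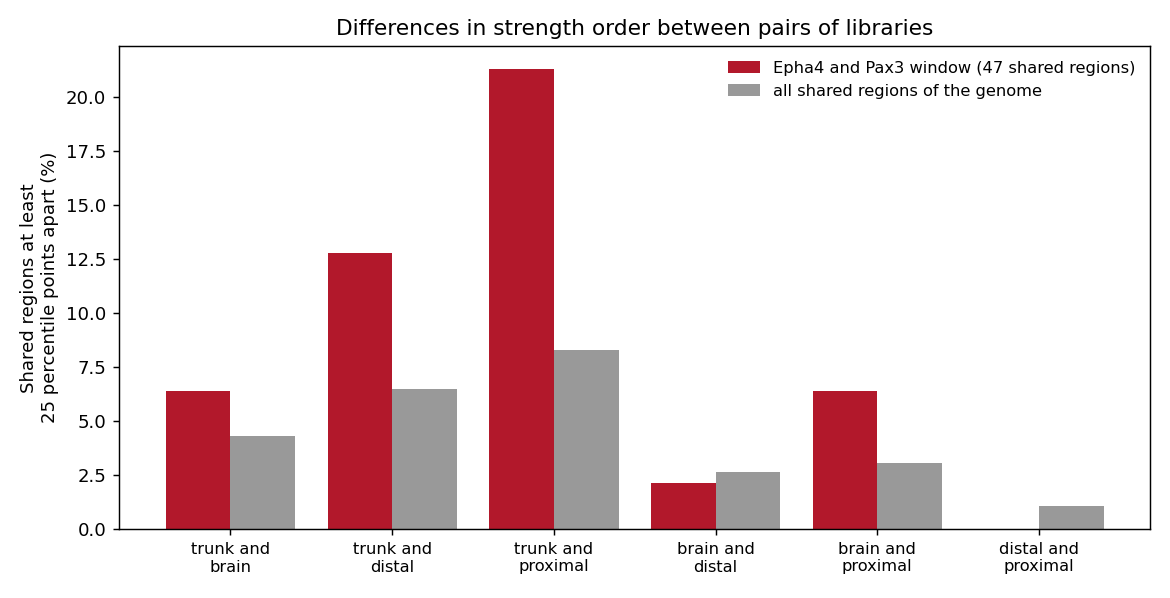
Share of shared regions that lay at least 25 percentile points apart (vertical, percent), for the 6 pairs of libraries (horizontal), in the window (red, 47 regions) and in the genome (grey, 51657 regions). The tallest red bar is trunk and proximal forelimb, with 10 of 47, and the forelimb pair has none.

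Trunk was the lowest tissue at 6 of the 13 and the highest at 5. The widest range was at chr1:75901050-75901508 in the desert, with 49.0 in trunk, 24.8 in brain, 27.7 in distal and 2.90 in proximal forelimb. Its pileups at the summit were 180, 63, 38 and 20 reads. The opposite order was seen at chr1:76053789-76054193 in Gm32622, with 3.33 in trunk, 32.3 in brain, 39.9 in distal and 37.7 in proximal forelimb. Another desert region, chr1:75608904-75609374, went from 3.72 in trunk and 10.6 in brain to 20.3 in distal and 40.4 in proximal forelimb. The other 2 of the 5 widest were the regions in Slc4a3 and Gm2102 given above.

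Counting error was set beside these ranks with an exact 95% Poisson interval for each pileup, carried over to a percentile. At chr1:76053789-76054193 the interval was 0.64 to 8.75 in trunk and 21.8 to 41.9 in brain, so they did not overlap. At the Gm33083 promoter it was 47.8 to 67.0 in trunk and 76.0 to 93.6 in brain. At chr1:75901050-75901508 it was 40.4 to 58.1 in trunk and 0.0 to 20.6 in proximal forelimb. Each of the 13 regions had at least 1 such pair of separate intervals, but the 13 had been picked for their distance. Between the forelimb parts the intervals overlapped at all 47 regions. The intervals cover counting error only. The highest pileup of a list was 399 reads in trunk, 393 in brain, 368 in distal and 365 in proximal forelimb, although the depths differed. At the strong site chr1:75559218-75560128 the pileups were 391, 381, 341 and 338. The intervals and the thinning take no account of an upper limit on pileups, and such a limit was not tested.

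The summits of the shared regions were close together in the 4 lists. At 43 of 47 they lay within 50 bases, against 90.8% in the genome, with a median spread of 23 bases against 19. At the 10 strong sites the largest spread was 24 bases. The widest in the window was 113 bases, at the weak region chr1:78036708-78037112 before Pax3.

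Regions called in 1 tissue only were mostly weak. In their own lists the trunk-only regions stood at a median percentile of 17.8 and at most 48.8. Brain-only regions stood at a median of 6.38 and at most 41.4. The 52 trunk-only regions had folds from 1.93 to 5.11 with a median of 2.83. At equal occupancy the computed chance of a call was 0.95 or more for 33 of them in brain, 7 in distal and 9 in proximal forelimb. These chances lean high, since the regions were picked for passing in trunk. The number of 1-tissue regions was 56 in place of 72 with only peaks of −log10 q 5 or more, and 40 when thinning to equal depth was joined with a −log10 p of at least 5. It was 28 at equal list length and 39 without the trunk library.

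The strongest trunk-only regions besides the one in Pax3 all lay in the desert. They were chr1:75771130-75771505 at a fold of 5.11, chr1:76546024-76546360 at 4.89, chr1:75888454-75888911 at 4.57 and chr1:75642315-75642630 at 4.28. Brain-only regions were led by chr1:77545693-77546043 in the non-coding gene Gm32793 next to Epha4, at 5.01, and by chr1:77503806-77504049 in Epha4, at 3.64. They were followed by chr1:78688231-78688457 in Acsl3 at 3.35, chr1:76513503-76513777 at 3.04 and the region at the Gm17751 promoter at 2.94.

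The forelimb parts had no 1-tissue region in Epha4. Distal forelimb alone had chr1:78568257-78568511 in Mogat1 at 3.73, chr1:78259853-78260074 at 3.38 and, in the desert, chr1:76946726-76946934 at 2.91. Besides its region in Pax3, proximal forelimb alone had chr1:78531579-78531779 in Mogat1 at 3.28 and chr1:77912987-77913186 in the non-coding gene Gm33030 at 3.04. All 6 stood low in their lists, the highest at percentile 14.5.

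Regions missing from a single tissue were 1 for trunk, against 0.289% of regions in the genome, 2 for brain (1.3%), against 1.47%, 4 for distal forelimb (2.6%), against 2.85%, and 7 for proximal forelimb (4.5%), against 2.91%. Brain lacked chr1:75530625-75530954 in Stk11ip and chr1:78034071-78034460 before Pax3, and the lowest computed chance of a brain call at equal occupancy was 0.989. In distal forelimb the missing regions were led by chr1:75955851-75956351 in Gm32622, which had folds of 7.07 in trunk, 6.34 in brain and 5.06 in proximal forelimb. The next were chr1:75635934-75636290 and chr1:78633354-78633696, whose lowest computed chances of a call there were 0.852 and 0.753. In proximal forelimb they were led by chr1:78557372-78557786 in Mogat1, with folds of 7.75, 5.14 and 5.11 elsewhere. Then came chr1:75690353-75690666 and chr1:75504989-75505418 in Obsl1, whose lowest chances were 0.991 and 0.931. All these chances are scaled by depth alone and lean high, since the regions were picked for passing elsewhere.

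Other domains with long-range limb enhancers were counted in the same way. From Map2k6 to Slc39a11, with Kcnj2 and Sox9, 65 of 169 regions (38.5%) were shared and 6 were strong. From Rbm33 to Nom1, with Shh and Mnx1, over only 1135 kb, 13 of 46 (28.3%) were shared and 3 were strong. Its share of shared regions was close to the 30.5% of the Epha4 and Pax3 window. Its regions called in 1 tissue only made up 54.3%, against 46.8% in the Epha4 and Pax3 window. Those called in distal forelimb only made up 10.9%, against 1.95%. Strong sites made up 6.52% of its regions, 6.49% in the Epha4 and Pax3 window and 3.55% in the Sox9 window, against 5.82% in the genome. With 10 strong sites in 3.2 Mb, the Epha4 and Pax3 window had more of them than the Sox9 window, which has nearly the same length at 3251 kb, but fewer shared regions. No test was made of these counts.

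**Figure D4:**
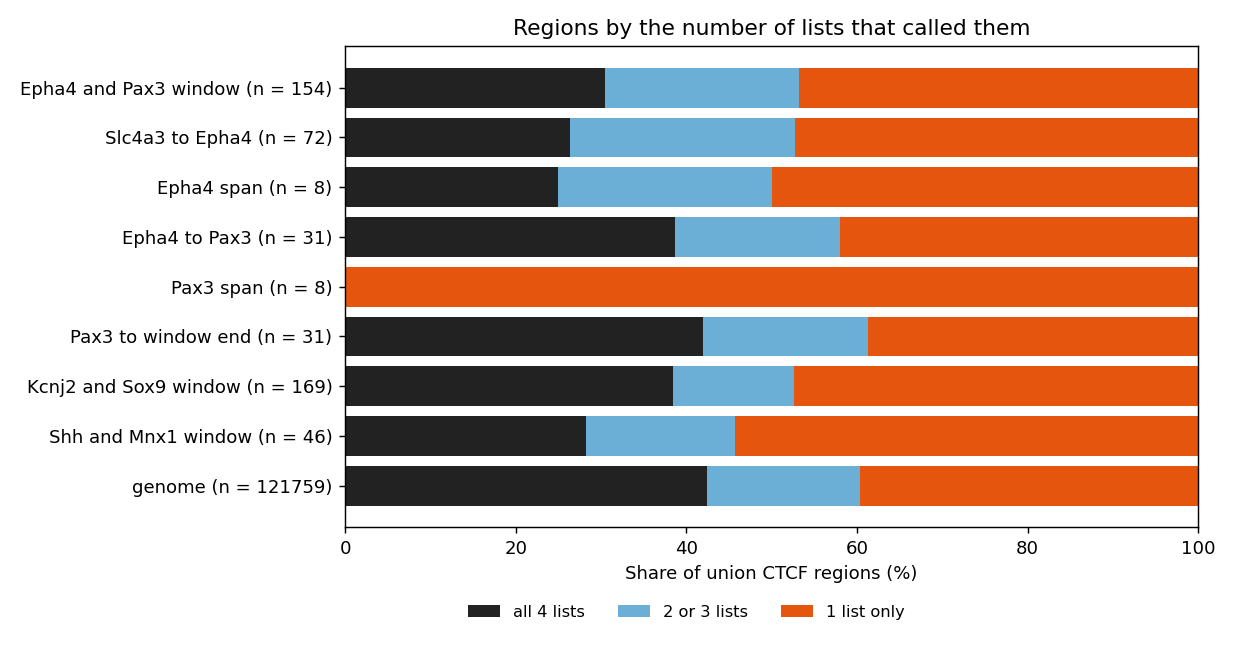
Share of CTCF regions (horizontal, percent) called in all 4 lists, in 2 or 3, and in 1 only, for the window, 5 of its segments, 2 other limb gene domains and the genome, with the number of regions in brackets. The Pax3 span is orange throughout, since each of its 8 regions was called in 1 list only.

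Both genes had a lower share of shared regions than the median gene of their family, and than the 42.4% of the genome. All 31 listed Eph, ephrin and Pax genes were found in RefSeq, and regions were counted within the span of each with 50 kb on both sides. Epha4 had 5 of 15 shared (33.3%), while the median over the 14 Eph receptors was 54.9%. The receptors Epha5, with 0 of 10, Epha3, with 3 of 15, and Epha7, with 3 of 13, were lower, and the highest was Ephb6, with 5 of 6. The ephrins, their ligands, had a median of 60.8%, in which neighbouring genes such as Efna1, Efna3 and Efna4 count some regions more than once. With each region counted once per family, 47.6% were shared for the Eph receptors, 49.0% for the ephrins and 42.0% for the Pax genes. These pooled shares were closer to the genome than the medians. Pax3 had 3 of 13 shared (23.1%), while the median over the 9 Pax genes was 36.0%. Pax6, the eye and forebrain gene, had 2 of 9, and Pax7, the nearest relative of Pax3, had 12 of 21.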

How the data were processed

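Per the submitters' processing notes, peaks came from MACS2 2.1.1.20160309, and SAMtools 1.9, Bowtie2 2.3.5, cutadapt 1.16 and build mm10 are named too. Options and any control library: not given in the sources used here. For every library the authors deposited a peak list with a fold (ratio of summit pileup to local background), a −log10 p and q, a score and, in the remaining column, the summit offset. The deposited score is, in nearly all rows, the whole part of 10 times the −log10 q. No read totals are given.

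Rows sharing an interval were merged to the strongest summit, and chromosomes 1 to 19, X and Y were used. Pileup and background were recovered from fold and p with an error of at most 0.00031 in −log10 p. Relative depth is the ratio of the lowest backgrounds. On simulated data the recovery gave back 100% of 20000 pileups. Joining gave back 100% of 5000 simulated tissue patterns. The simulated sites had a common centre in all tissues and were too far apart to overlap, so this could not test closely spaced neighbours. Relative depth was not tested. Chances of a call scale an observed pileup by relative depth alone and take no account of other differences between libraries. Genes and promoters came from RefSeq GRCm38.p6, the assembly of mm10. Python 3.11.15, numpy 2.4.6, pandas 2.3.3, scipy 1.17.1 and matplotlib 3.10.9 were used.

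The window, lists and settings were chosen with earlier results of these data known. Regions named are every strong site, every shared region in Epha4 or Pax3 and within 50 kb, the first and last shared region of each segment, the 5 with the widest rank range, runs of 3 or more shared regions with centres at most 20 kb apart, and per tissue up to 5 called there only (by fold) and up to 3 missing only there. Others were named after their values were seen. Alternatives were a −log10 q of at least 5, equal list lengths, thinning, another joining rule, no trunk library and other thresholds. The planned motif search at summits needs a genome and was not run.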

Additional observations from a re-analysis of the deposited data

How the results depend on the processing

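The 47 shared regions stayed between 43 and 48, the 19 of the desert between 16 and 19 and the 14 from the Epha4 span to the Pax3 span between 12 and 15, under a −log10 q of at least 5, equal list lengths, thinning to equal depth with a −log10 p of at least 5, joining at an overlap of 50% of the shorter peak, and without the trunk library. Regions called in 1 tissue only went from 72 to 28 at equal list length, 40 after thinning with that −log10 p and 39 without the trunk library. Their shares of the window's regions there were 29.2, 35.1 and 38.2%, against 23.2, 29.5 and 29.1% in the genome. The 13 regions that differed in rank became 5 without the trunk library and 27 at a threshold of 15 points, against 45.8% of the genome's shared regions. The 10 strong sites were 4 with a lowest percentile of at least 90 and 8 to 12 in the other settings, among them ranking by fold, which was added after seeing the data and gave 8. No paired analysis was possible because the design has a single library for every tissue, and leaving out a replicate could not be done either. Motif searches around summits were not run. Counting error alone left wide intervals. A pileup of 20 reads in proximal forelimb, at chr1:75901050-75901508, had an interval from percentile 0.0 to 20.6. Some stronger regions had wider ones. At chr1:77496562-77497041 it ran from 7.73 to 38.7 in distal forelimb. At the strong site chr1:77516102-77516925 it ran from 74.4 to 97.9 in trunk.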

Other observations

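A pair of further regions, named after their values were seen, had tissue patterns found once each among the 154 regions of the window. Of the 121759 regions in the genome, 328 were called in brain and distal forelimb only and 404 in both forelimb parts only. A single region of each is too few to set against these rates. In the non-coding gene Gm17751, chr1:76489653-76490012 was called in brain at a fold of 7.87, percentile 58.4 of the brain list, and in distal forelimb at 2.35, percentile 0.18 of that list. It was called in neither posterior trunk nor proximal forelimb. Scaled from the distal forelimb pileup, the chance of a call was 0.914 in trunk and 0.553 in proximal forelimb, and scaled from the brain pileup it was 1.0 in both. In Gm2102, past Pax3, chr1:78217365-78217667 was the only region of the window called in both forelimb parts and in no other tissue. Its folds were 4.27 in distal and 2.87 in proximal forelimb. Scaled to their depths, its computed chance of a call at equal occupancy was at least 0.993 in trunk and brain. The chances for both regions lean high, since the regions were picked for passing elsewhere, and they are scaled by depth alone. The median fold of the whole list was 4.99 in trunk and 5.71 in brain, against 6.89 in distal and 6.64 in proximal forelimb.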
